A study of Penicillium oxalicum with 6 samples.

Results

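The most abundant transcripts of a cellulose-exposed filamentous fungus were followed into a strain that lacks the gene POX01387. They were 94 of 9727 genes, chosen from the deposited expression values. A gene was a member if it had at least 1000 FPKM in each of the 3 libraries of the parental strain Δku70, a level that 110 genes reached. FPKM is a measure of transcript level, a fragment count corrected for transcript length and for the size of the library. Of the 110 genes, 16 were left out. In 9 of these the lowest Δku70 value was at least 4 times the highest ΔPOX01387 value, and in 1 the lowest ΔPOX01387 value was at least 2 times the highest Δku70 value. The other 6 stood only on a list of 35 IDs kept apart by the rule. The members were thus defined by their parental level and by a limit on their difference between the strains. Their levels and differences are therefore given as a description and without a test.

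The study measured mycelium of Penicillium oxalicum, a mould that secretes enzymes that break down plant cell walls. The mutant, ΔPOX01387, lacks the gene POX01387 and was set against Δku70, which the series names as its parental strain, with 3 libraries each. The deletion of ku70, a gene for joining broken DNA ends, is thus the background in which POX01387 was removed. Mycelium of either strain was raised on 1.0% glucose for 24 h at 28 °C, and a portion of roughly 1 g then spent 24 h in liquid medium with 2% Avicel, a microcrystalline cellulose. Nothing in the labels ties the libraries of a strain to separate cultures, so the spread between them may be partly technical.

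In a growing fungus a small number of genes supplies a large share of all messenger RNA. Such genes commonly encode ribosomal proteins, translation factors, enzymes of central metabolism, histones, cell wall proteins and, on a polymer such as cellulose, secreted hydrolases. The files pair no ID with a gene name or product, and 0 of the 94 members matched an entry of the RefSeq table of strain HP7-1. No member is therefore assigned to any of these classes here, and members are described by ID, level and behaviour. RNA was taken from whole mycelium, where fewer hyphae of one kind and less RNA per hypha cannot be told apart. An FPKM value is also a share of a library, so a large gain of one abundant gene lowers the values of others.

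POX01387 itself had 0.02, 0 and 0 FPKM in ΔPOX01387 replicates 1, 2 and 3, against 9.4, 6.89 and 6.14 FPKM in Δku70 replicates 1, 2 and 3. The gene followed the strain labels in all 6 libraries. The number of genes listed at 0 was 253 to 259 in ΔPOX01387 and 180 to 209 in Δku70. The number of reads behind the values is unknown. Between the strains, 47.9% of the 8925 genes tested, those averaging 1 FPKM or more, differed at an adjusted p under 0.05 in limma, a linear model fitted across all genes, with 15.3% higher and 32.6% lower in ΔPOX01387. The median log2 fold change over these genes was -0.15 with the deposited FPKM and 0.01 after median-of-ratios scaling, which aligns the libraries on their typical gene. That scaling gave 2117 genes higher and 1972 lower, against 1366 higher and 2906 lower with the deposited FPKM, and quantile normalization gave 1909 higher and 1961 lower. With the deposited FPKM the genes higher numbered 830 without ΔPOX01387 replicate 1, 898 without ΔPOX01387 replicate 2 and 868 without Δku70 replicate 3.

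The members took 26.0% ± 0.439 of the summed FPKM in ΔPOX01387 and 27.0% ± 1.22 in Δku70 (SD, n = 3 each). By library the share was 26.3%, 25.5% and 26.3% in ΔPOX01387 replicates 1, 2 and 3, against 28.2%, 25.8% and 27.1% in Δku70 replicates 1, 2 and 3. The ranges overlapped, with 1 Δku70 library below the 2 highest ΔPOX01387 libraries. After quantile normalization the shares were 25.5% in ΔPOX01387 and 28.3% in Δku70. The 10 members with the highest parental mean took 7.90% ± 0.748 in ΔPOX01387 and 8.90% ± 1.23 in Δku70 (SD, n = 3 each). The other 84 members took 18.1% ± 0.314 in ΔPOX01387 and 18.1% ± 0.207 in Δku70 (SD, n = 3 each). The 16 genes left out of the set together held 5.76% ± 1.06 in ΔPOX01387 and 5.84% ± 0.642 in Δku70 (SD, n = 3 each). These near-equal totals joined opposite differences. POX04786, left out at the upper fold limit, had a mean of 22438 FPKM in ΔPOX01387 and 5770 FPKM in Δku70. The 9 genes left out at the lower fold limit went the other way.

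**Figure D1:**
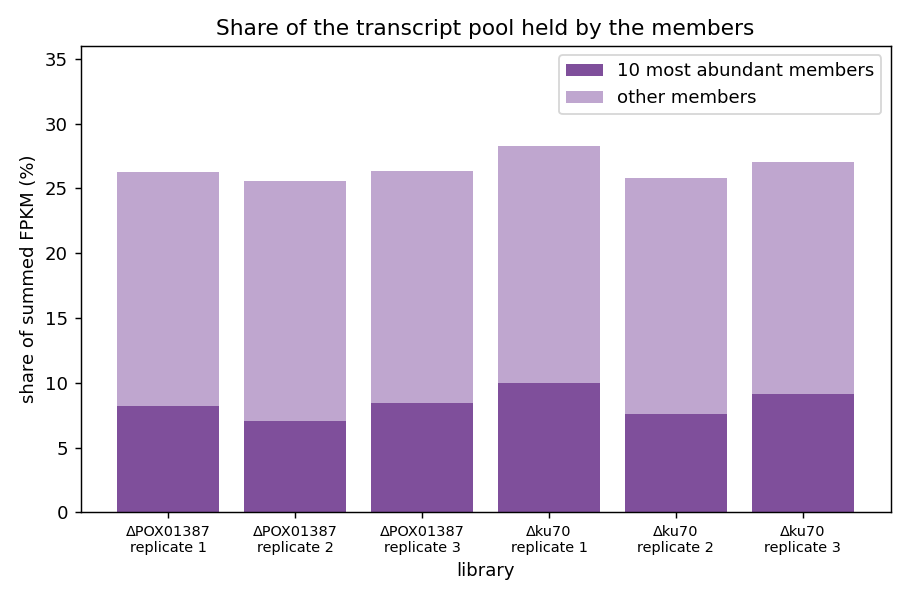
Share of summed FPKM (%, vertical axis) held by the members in each of the 6 libraries (horizontal axis), ΔPOX01387 on the left and Δku70 on the right; the lower part of a bar is the 10 members with the highest parental mean and the upper part is the other 84. The whole bars lie between 25.5% and 28.2%.

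Behind these totals, single members moved far in both directions. Summed over the means of the strains, 42 members gained 57437 FPKM in ΔPOX01387 and 52 members lost 60625 FPKM, a net difference of -3188 FPKM. The gains were concentrated in a pair of genes, POX01105 and POX01764, which made up 42.3% of them. The losses were spread more widely. The largest were -6327 FPKM for POX08906 and -5253 FPKM for POX03782, against gains of 14758 FPKM for POX01105 and 9544 FPKM for POX01764. The 8 members with the largest losses made up 53.0% of all losses. These members were POX08906, POX03782, POX07582, POX02286, POX04781, POX04408, POX09287 and POX07457.

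Most members stayed abundant in the mutant, which is partly by definition. The rule had removed the genes whose lowest Δku70 value was at least 4 times the highest ΔPOX01387 value. Of the 94, 72 had at least 1000 FPKM in every ΔPOX01387 library, 9 did so in some of them, and 13 were below 1000 FPKM in all 3. The lowest value of any member in a mutant library was 362.6 FPKM. Member means ranged from 407 to 28688 FPKM in ΔPOX01387, with a median of 1776 FPKM, and from 1063 to 23648 FPKM in Δku70, with a median of 2035 FPKM. By mean level, 59 members stood among the 100 most abundant genes of ΔPOX01387 and 72 among those of Δku70. The order of the members was partly kept, with a Spearman correlation of 0.716 between their mean levels in the strains, across 94 genes that share the same 6 libraries. ΔPOX01387 had 134 genes at 1000 FPKM or more in every library, and 56 of these were not at that level in every Δku70 library.

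The 10 members with the highest parental mean are given first. They are not the 10 most abundant genes, since genes of similar level were left out by the rule, some for their difference between the strains. POX05554 was the most abundant gene of Δku70. It had 30305, 25294 and 29501 FPKM in ΔPOX01387 replicates 1, 2 and 3, against 28499, 18657 and 23789 FPKM in Δku70 replicates 1, 2 and 3. The strains overlapped, and the log2 fold change was 0.28 ± 0.28 (SE). It was 0.45 after median-of-ratios scaling, with every mutant library above the parental ones, and -0.21 after quantile normalization. This gene alone took 2.90%, 2.41% and 2.89% of the summed FPKM in the mutant libraries and 2.80%, 1.84% and 2.37% in the parental libraries.

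POX01105, second in Δku70, was first by mean in ΔPOX01387. It had 29589, 26095 and 30380 FPKM in ΔPOX01387 replicates 1, 2 and 3, against 13327, 12727 and 15738 FPKM in Δku70 replicates 1, 2 and 3. All mutant libraries lay above all parental ones, with a log2 fold change of 1.05 ± 0.24 (SE), a 2.06-fold higher level. Quantile normalization, which forces the libraries to share 1 distribution and so caps the top ranks, left it at 0.21 with overlapping libraries.

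The next 6 members in parental order were all lower in the mutant, without overlap between the strains under any scaling tried. Ranking by the parental mean favours genes with high Δku70 values, so nothing is read from this run of lower genes. Among the 10 members with the highest mean over all 6 libraries, 4 were higher in the mutant without overlap, 3 were lower and 3 overlapped, with the deposited FPKM. These members too were chosen by their Δku70 level, so nothing is read from these counts either. POX08906 had 2877, 2273 and 2466 FPKM in ΔPOX01387 replicates 1, 2 and 3, against 12257, 6715 and 7626 FPKM in Δku70 replicates 1, 2 and 3. Its log2 fold change was -1.76 ± 0.26 (SE), and it stood at rank 41 by mean in ΔPOX01387 and at rank 3 in Δku70. POX02286 had 3537, 2950 and 3814 FPKM in ΔPOX01387, against 6559, 7372 and 8565 FPKM in Δku70, a log2 fold change of -1.13 ± 0.19 (SE). The spread within each strain was small beside the gap between them for POX02286.

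POX07582 had 2812, 2307 and 2888 FPKM in ΔPOX01387, against 4634, 7944 and 8827 FPKM in Δku70, a log2 fold change of -1.37 ± 0.27 (SE). Here Δku70 replicate 1 was the low parental library, the opposite of POX08906, where it was the high one. POX09287 varied little, with 3843, 4003 and 4625 FPKM in ΔPOX01387 and 6981, 6283 and 7060 FPKM in Δku70. Its log2 fold change was -0.71 ± 0.17 (SE), a 1.63-fold lower level in the mutant. POX04781 had 3007, 1939 and 2205 FPKM in ΔPOX01387 and 9308, 3837 and 5723 FPKM in Δku70, a log2 fold change of -1.33 ± 0.35 (SE).

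On the log2 scale POX03782 had the largest difference of any member. It had 859, 484 and 686 FPKM in ΔPOX01387 replicates 1, 2 and 3, against 11007, 2487 and 4293 FPKM in Δku70 replicates 1, 2 and 3. The log2 fold change was -2.89 ± 0.53 (SE), a 7.43-fold lower level, and the gene stood at rank 259 in ΔPOX01387 and at rank 10 in Δku70. Its parental libraries differed 4.42-fold among themselves, the widest spread of any member in Δku70. Without Δku70 replicate 1 the log2 fold change was -2.31.

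The last 2 of the 10 had overlapping libraries with the deposited FPKM. POX06051 had 2984, 3034 and 4489 FPKM in ΔPOX01387 and 2920, 6586 and 5915 FPKM in Δku70, where replicate 1 was below every mutant library. POX06036 had 5630, 5588 and 5458 FPKM in ΔPOX01387 and 6213, 4062 and 4320 FPKM in Δku70. The mutant libraries of POX06036 lay within 1.03-fold of each other, and inside the parental range. After median-of-ratios scaling they were all above the parental ones, with a log2 fold change of 0.38.

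**Figure D2:**
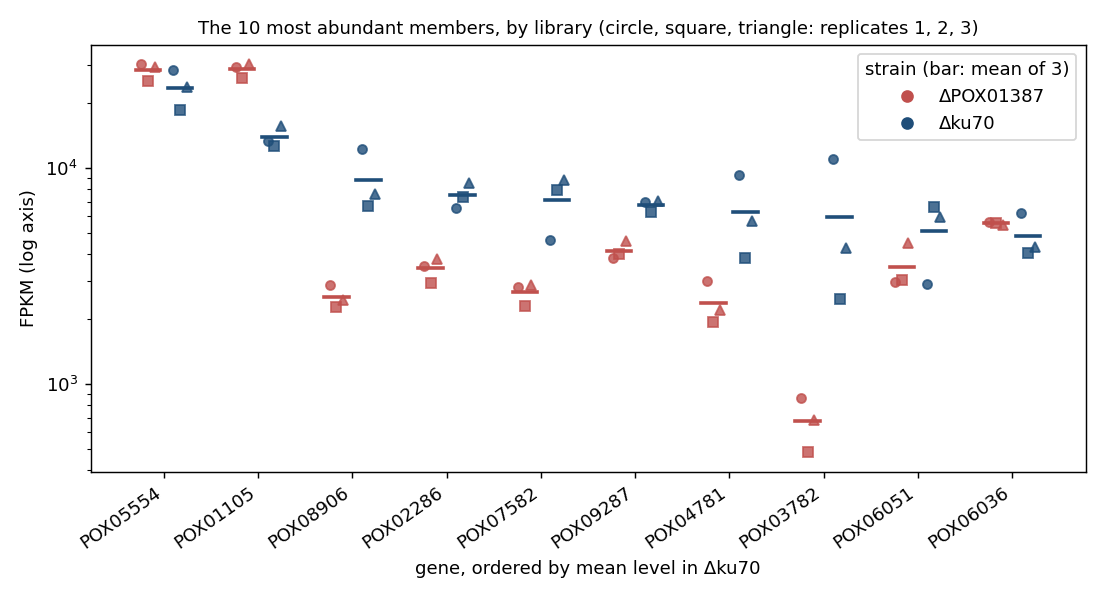
FPKM (vertical log axis) of the 10 members with the highest mean in Δku70 (horizontal axis), with a point per library, ΔPOX01387 left of Δku70 for each gene, and a bar at the mean of 3 libraries. POX01105 lies higher in ΔPOX01387, 6 genes from POX08906 to POX03782 lie lower, and POX05554, POX06051 and POX06036 overlap.

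Over all 94 members the differences ran from -2.89 to 1.78 on the log2 scale. The median was -0.16, against -0.15 over all genes tested, and 51 members lay below 0 and 43 above it. The median size of the difference without its sign was 0.374 for the members, 0.372 for all genes tested and 0.405 for the 1548 genes with a parental mean between 100 and 1000 FPKM. The members were cut at the fold limits of the rule and the other genes were not. Without Δku70 replicate 1 the median over the members was -0.08. After median-of-ratios scaling it was 0.01, with 46 members below 0 and 48 above it.

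In 22 members every ΔPOX01387 library was above every Δku70 library, against 19.3% of all tested genes, and in 39 members every one was below, against 40.0% of all tested genes. As shares of the members these are 23.4% and 41.5%. In the other 33 members the libraries of the strains overlapped. Median-of-ratios scaling gave 31 members above, 33.0% of them against 29.7% of tested genes, and 28 below, 29.8% against 28.8%. All 22 and 28 of the 39 kept their place under it. Under all 3 other scalings, which were equal sums, median of ratios and quantile normalization, 15 of the 22 and 28 of the 39 did so. In the limma fit 10 members were called higher, against 15.3% of tested genes, and 25 lower, against 32.6%. Median-of-ratios scaling gave 16 higher, against 23.7%, and 22 lower, against 22.1%. Since the rule used this contrast, nothing is read from these counts.

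Differences of at least 2-fold were found for 16 members. Of these 4 were higher in ΔPOX01387, 4.26% of the members against 4.32% of tested genes. The other 12 were lower, 12.8% of the members against 6.98% of tested genes. With median-of-ratios scaling 6 members were higher, against 5.71% of tested genes, and 10 lower, against 5.05%. The rule required high parental values and set its limit at 4-fold for lower genes but at 2-fold for higher ones. Nothing is therefore read from these counts either. At the other end, 47 members lay within 1.3-fold of equal levels.

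**Figure D3:**
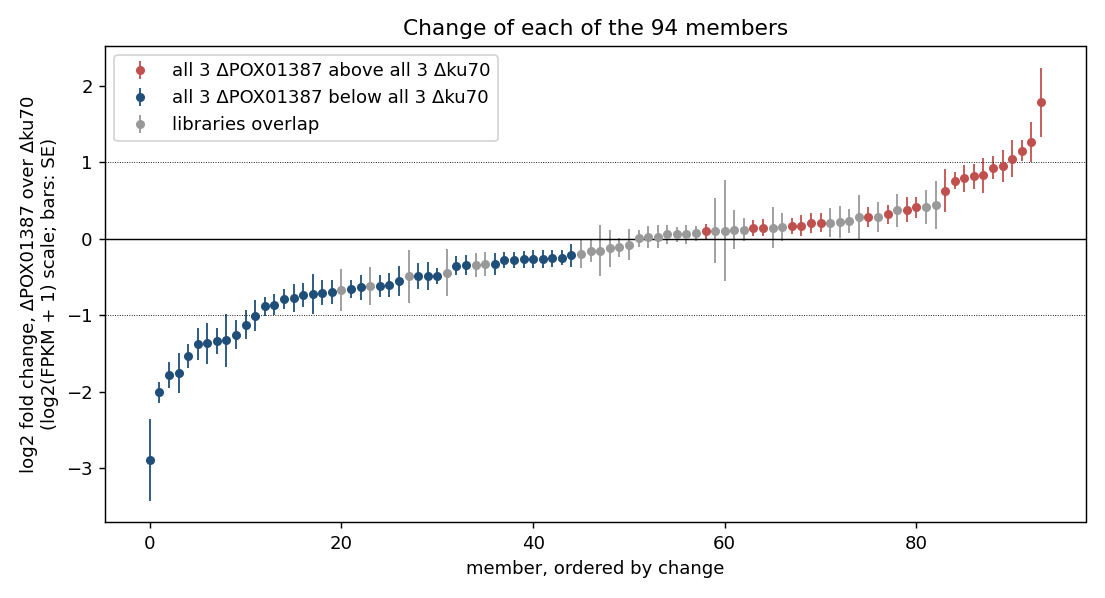
Log2 fold change of ΔPOX01387 over Δku70 (vertical axis, log2(FPKM + 1) scale, bars are SE) for the 94 members in order of change (horizontal axis). The 22 members with all mutant libraries above the parental ones and the 39 with all below take the 2 ends, dotted lines mark 2-fold, and the 33 with overlapping libraries fill most of the middle.

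The 5 largest increases among the members were those of POX01764, POX06753, POX06884, POX01105 and POX03796. POX01764 had 13662, 16866 and 12211 FPKM in ΔPOX01387 replicates 1, 2 and 3, against 2289, 8068 and 3750 FPKM in Δku70 replicates 1, 2 and 3. The strains did not overlap although the parental libraries differed 3.52-fold. The log2 fold change was 1.78 ± 0.45 (SE), and it lay between 1.36 without Δku70 replicate 1 and 2.27 without Δku70 replicate 2. The gene stood at rank 5 in ΔPOX01387 and at rank 18 in Δku70. Quantile normalization left it at 1.29 with overlapping libraries.

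POX06753 had 3241, 3872 and 3069 FPKM in ΔPOX01387 and 2092, 1233 and 1077 FPKM in Δku70, a log2 fold change of 1.26 ± 0.27 (SE). POX06884 was the most even of the 5, with 2991, 3008 and 2507 FPKM in ΔPOX01387 and 1377, 1269 and 1178 FPKM in Δku70. Its log2 fold change was 1.15 ± 0.14 (SE). The gap of POX06884 was several times the spread within either strain. POX03796 had 3982, 4054 and 3561 FPKM in ΔPOX01387 and 1554, 2579 and 1988 FPKM in Δku70, a log2 fold change of 0.95 ± 0.21 (SE). These 3 genes stayed above the parental range under each of the 3 other scalings. They stood at ranks 26, 32 and 22 by mean in ΔPOX01387 and at ranks 90, 106 and 61 in Δku70.

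Beside POX03782 and POX08906, the largest decreases were those of POX07457, POX04408 and POX05374. POX07457 had 730, 622 and 778 FPKM in ΔPOX01387 and 3116, 2769 and 2689 FPKM in Δku70, a log2 fold change of -2.01 ± 0.14 (SE). POX04408 had 1332, 1248 and 1560 FPKM in ΔPOX01387 and 4159, 5476 and 4638 FPKM in Δku70, a log2 fold change of -1.78 ± 0.17 (SE). POX05374 had 363, 385 and 474 FPKM in ΔPOX01387 and 1361, 1031 and 1150 FPKM in Δku70, a log2 fold change of -1.53 ± 0.15 (SE). In all 3 genes the highest mutant library was less than the lowest parental one by more than 2-fold. POX05374 had the lowest mean of any member in the mutant, at rank 439, against rank 113 in Δku70. POX07582, POX04781 and POX02286, described above, were also lower by at least 2-fold. The remaining 4 of the 12 were POX05575, POX02721, POX01317 and POX08562, named after their values were seen, with log2 fold changes of -1.38, -1.34, -1.26 and -1.01.

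**Figure D4:**
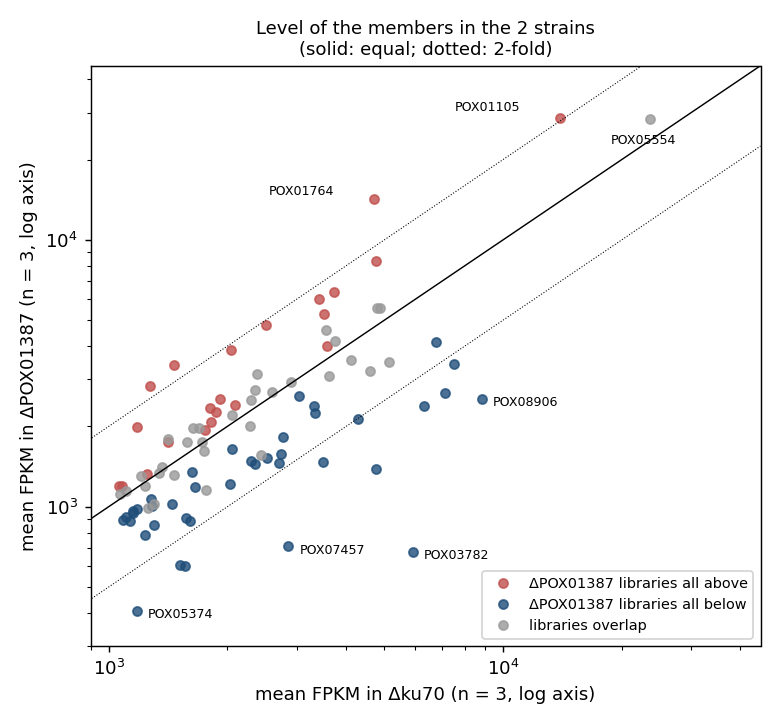
Mean FPKM of the 94 members in ΔPOX01387 (vertical log axis) against Δku70 (horizontal log axis), n = 3 libraries each, with a solid line at equal levels and dotted lines at 2-fold. POX01764 lies farthest above the line and POX03782 farthest below it.

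Other members were almost level between the strains. The 5 with the smallest log2 fold changes were POX06677, POX02853, POX06702, POX04335 and POX02516, with values from 0.00 to 0.05 and SE from 0.10 to 0.15. POX06677 had 1347, 1328 and 1354 FPKM in ΔPOX01387 and 1445, 1223 and 1365 FPKM in Δku70. POX02516 had 1140, 1093 and 1209 FPKM in ΔPOX01387 and 1112, 1100.1 and 1099.5 FPKM in Δku70. The mutant values of POX06677 lay inside the parental range, and those of POX02516 spanned it.

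POX02853 had 1922, 1550.1 and 1776 FPKM in ΔPOX01387 and 1743, 1559 and 1870 FPKM in Δku70. POX06702 had 2959, 2851 and 2967 FPKM in ΔPOX01387 and 2484, 3225 and 2988 FPKM in Δku70. POX04335 had 1394, 1386 and 1450 FPKM in ΔPOX01387 and 1416, 1209 and 1464 FPKM in Δku70. Levelness here is relative to the deposited scaling, since median-of-ratios scaling put the 5 genes between 0.17 and 0.22. With it POX06677, POX04335 and POX02516 had mutant libraries all above the parental ones.

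Few members kept a narrow range over all 6 libraries. The highest value was under 1.2 times the lowest in 6 members, 6.38% of them, against 6.16% of tested genes. Besides POX06677 and POX02516 these were POX09667, POX04610, POX03013 and POX08006, named after their values were seen. POX09667 had 2713, 2765 and 2628 FPKM in ΔPOX01387 and 2675, 2522 and 2605 FPKM in Δku70. POX04610 had 1892, 1929 and 2006 FPKM in ΔPOX01387 and 1776, 1762 and 1741 FPKM in Δku70. With the deposited FPKM the strains overlapped for POX09667, whereas every mutant library of POX04610 lay slightly above the parental ones.

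Replicate spread was similar to that of other genes or somewhat wider. The SD of the log2 values within a strain had a median over the members of 0.150 in ΔPOX01387 and 0.184 in Δku70. Over all tested genes the medians were 0.133 in ΔPOX01387 and 0.146 in Δku70, and over the genes with a parental mean between 100 and 1000 FPKM they were 0.118 in ΔPOX01387 and 0.145 in Δku70. The 1000 FPKM floor of the rule limits how low a parental value of a member can be, and so narrows its parental spread. Its fold limits compare the lowest library of a strain with the highest of the other, and so keep genes with large differences when their libraries spread widely. POX03782 and POX01764, whose parental libraries differed 4.42-fold and 3.52-fold, are such genes. The rule thus acts on spread in both directions, and the comparison with other genes is only a description. In 63 members, 67.0% of them, the SD was smaller in ΔPOX01387 than in Δku70, against 56.2% of tested genes and 61.7% of the genes between 100 and 1000 FPKM. A difference of at least 2-fold between the highest and the lowest library was seen for 2 members in ΔPOX01387 and for 9 in Δku70. Without Δku70 replicate 1 the parental median SD was 0.116, and without ΔPOX01387 replicate 3 the mutant median SD was 0.0982. These are SDs of 2 libraries, whose median tends to lie below that of SDs of 3, so the drop is not assigned to the replicates left out.

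Replicate 3 was the lowest library of both strains in 14 members, 14.9% of them against 16.4% of tested genes, and the highest of both in 20 members, 21.3% against 18.3%. In 6 of the 14 replicate 3 was under 0.75 times the mean of replicates 1 and 2 in each strain, a limit chosen after the values were seen. This was 6.38% of the members, against 5.23% of tested genes. POX01033 was the clearest case, with 3162, 4181 and 887 FPKM in ΔPOX01387 replicates 1, 2 and 3, against 3581, 2351 and 1122 FPKM in Δku70 replicates 1, 2 and 3. It had the widest spread of any member in the mutant. The log2 fold change of this gene was 0.10 ± 0.66 (SE), and it ran from -0.35 without Δku70 replicate 3 to 0.78 without ΔPOX01387 replicate 3.

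POX04863 had the same shape, with 2607, 3538 and 1392 FPKM in ΔPOX01387 and 3148, 2342 and 1405 FPKM in Δku70. POX03085 had 1271, 2175 and 1233 FPKM in ΔPOX01387 and 2903, 2497 and 1889 FPKM in Δku70. The strains overlapped in both genes. The other members of the group were POX03083, POX07408 and POX01636, whose replicate 3 was between 0.645 and 0.749 of the mean of the others in ΔPOX01387 and between 0.650 and 0.715 in Δku70. The labels do not say what the replicate numbers of the strains share, and the part of any shared handling in this pattern was not tested.

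**Figure D5:**
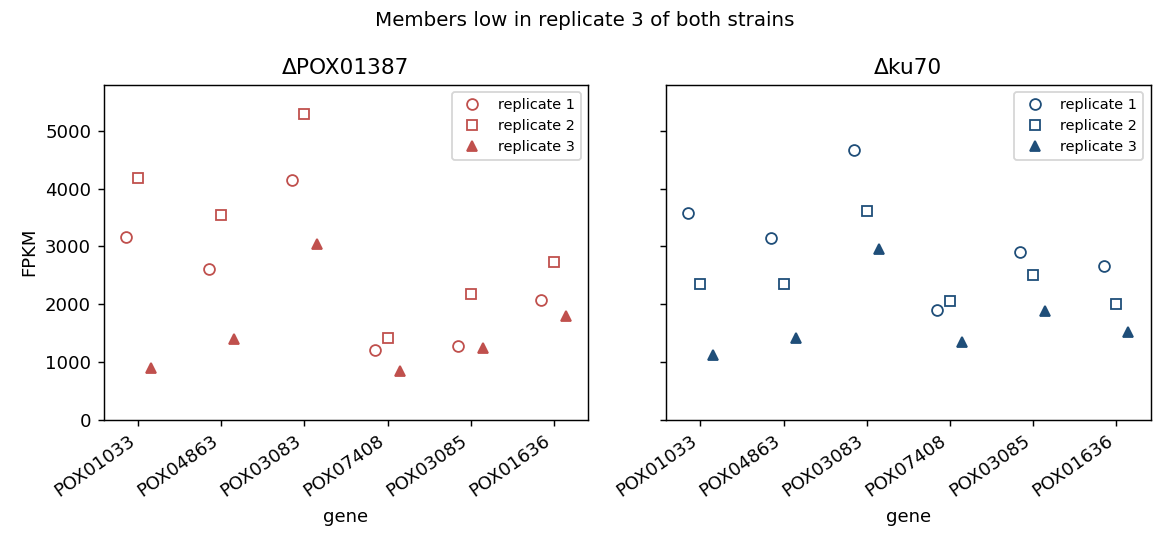
FPKM (vertical axis) of the 6 members with a low replicate 3 (horizontal axis), ΔPOX01387 in the left panel and Δku70 in the right, with open circles and squares for replicates 1 and 2 and filled triangles for replicate 3. The triangle is the lowest point of each gene in both panels, at 887 FPKM for POX01033 in ΔPOX01387 and 1122 FPKM in Δku70.

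The rule left out stretches of consecutive IDs, so runs among the members are limited by their definition. There was no run of 3 or more consecutive IDs among them. There were 3 pairs of consecutive IDs, named here after their values were seen, and their positions in the genome were not used. POX02072 and POX02073 were both strongly expressed, at 3555 ± 426 and 5535 ± 729 FPKM in ΔPOX01387 and at 4109 ± 654 and 4796 ± 686 FPKM in Δku70 (SD, n = 3 each). Their log2 fold changes of -0.20 and 0.21 had opposite signs, and the strains overlapped in both with the deposited FPKM. After median-of-ratios scaling the mutant libraries of POX02073 were all above the parental ones. In each strain replicate 3 was the highest library for both genes.

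POX06393 and POX06394 had log2 fold changes of 0.17 and 0.32, and every mutant library was above every parental one in both with the deposited FPKM. Under equal-sum and quantile scaling the strains overlapped in POX06393. POX09666 and POX09667 had 0.20 and 0.06, and with the deposited FPKM the strains overlapped only in POX09667. Under median-of-ratios and quantile scaling POX09667 was also higher without overlap. Another 2 pairs of members were separated by a single ID. POX03083 and POX03085 flanked POX03084, which had a mean of 20.2 FPKM in ΔPOX01387 and 41.1 FPKM in Δku70. POX09287 and POX09289 flanked POX09288, with a mean of 57.9 FPKM in ΔPOX01387 and 43.1 FPKM in Δku70. The genes between the members were thus far below them in level in both strains.

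At the edges of the definition, POX07813 was the member with the lowest parental minimum, at 1235, 1136 and 1203 FPKM in ΔPOX01387 and 1074, 1009.5 and 1106 FPKM in Δku70. POX07863 was just outside, at 522, 484 and 603 FPKM in ΔPOX01387 and 994, 1894 and 1308 FPKM in Δku70. Of the fold limits, POX07457 came closest to the lower one, with its lowest parental value 3.45 times its highest mutant value, and POX09365 was the nearest gene left out, at 4.36 times. POX06884 came closest to the upper limit, with its lowest mutant value 1.82 times its highest parental value, and POX04786 was the gene left out there, at 2.44 times.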

How the data were processed

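The authors deposited 1 table per library with gene IDs and FPKM values, per the file headers, made from total RNA enriched for mRNA and sequenced on the BGISEQ-500 platform, per the labels' protocols. The tools listed, per the submitters' processing notes, are RSEM 1.2.12, Bowtie2 2.1.0, DESeq2 and BWA 0.7.10-r789, without a role for any of them. Build and annotation: not given in the sources used here. Counts were not used, so no count model was fitted and no counting interval is given. Among low values of genes listed at 0 in some library, between 64.4% and 76.5% per library lay at the smallest step seen in any library (within 10% plus 0.01 FPKM, values under 2.5 steps), and no library of far shallower depth was seen.

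Groups and replicate numbers came from the sample titles. FPKM was transformed to log2(FPKM + 1), and 8925 of 9727 genes, those averaging 1 FPKM or more and all 94 members among them, entered limma 3.58.1 in R 4.3.3 with an intensity trend, two-sided, with Benjamini-Hochberg adjustment at 0.05. SE values of fold changes are limma's moderated ones. The procedure was tested on simulated data. Reads shared between near-identical copies could not be recognised. No 2 libraries were identical.

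The members and the rules for naming genes were chosen with earlier results of these data known. Named were the members with the 10 highest parental means, the 5 largest increases, decreases and smallest changes, the 3 widest spreads per strain, those at the limits, and runs of IDs. Lists by product had no members to count. Alternatives were 2 pseudocounts, 2 filters, 3 scalings, 2 priors, the replicate block, other levels of membership and leaving out each library.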

Additional observations from a re-analysis of the deposited data

How the results depend on the processing

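The 26 named members gave 416 values over 16 other settings of the fit. Of these, 400 stayed within 1 SD of the replicates, 16 moved further, all under median-of-ratios or quantile scaling, and no member called in limma changed direction. Under median-of-ratios scaling 2117 genes were higher in ΔPOX01387, against 1366, and 16 members were called higher, against 10, as its upward shift of the mutant values gives. The members' median log2 fold change was then 0.0085 and under equal sums -0.195, against -0.158. Quantile normalization put the members' share at 25.5% in ΔPOX01387 and 28.3% in Δku70, against 26.0% and 27.0%, and the cause was not tested.

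With 1 library left out, 2960 to 4002 genes differed, 830 to 1345 were higher and 2092 to 2734 lower, against 4272, 1366 and 2906. The genes higher numbered 830 without ΔPOX01387 replicate 1, 898 without its replicate 2 and 868 without Δku70 replicate 3. Members called numbered 7 to 11 higher and 19 to 27 lower. Their median log2 fold change ran from -0.225 to -0.077. Their median SD ran from 0.0982 to 0.150 in ΔPOX01387 and from 0.116 to 0.184 in Δku70. The upper ends are the values with all 3 libraries of the strain, where the library left out was of the other strain. The lower ends are SDs of 2 libraries, which tend to be smaller.

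A level of 500 FPKM in place of 1000 gave 238 members with 38.2% of the summed FPKM in ΔPOX01387 and 39.0% in Δku70, a median log2 fold change of 0.064, and 200 members at the level in every mutant library, against 72. A level of 2000 FPKM gave 37 members with 17.5% and 18.2%, a median of -0.445, and 26 at the level. The sign of the median thus depended on the level chosen. Each level was set on the Δku70 libraries alone, which favours genes with high parental values, so no trend with abundance is read from these medians. Grouped by the mean of all 6 libraries, the 47 members under 2000 FPKM had a median log2 fold change of -0.268. The next 37 had 0.022 and the 10 highest had 0.249. Every member had at least 1000 FPKM in each Δku70 library, so a low mean over all 6 favours genes with low mutant values. No trend with abundance is read from this grouping either.

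The labels do not say that replicate numbers pair the samples. The libraries' deviations from their strain means had correlations of 0.088, 0.27 and 0.54 across tested genes between libraries numbered 1, 2 and 3, and at 0.36, 0.34 and 0.84 across the 94 members. Pairs of different number lay between -0.52 and 0.097 across tested genes and between -0.75 and 0.19 across the members. Deviations from a strain mean cancel out for each gene, so these values are not independent of the same-number ones. With the replicate block 4585 genes differed, 10 members were called higher and 27 lower. FPKM carries no depth, so counting error could not be separated from other spread.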
